A study of Mus musculus with 6 samples.

Results

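Tyr, Tyrp1 and Dct encode the 3 enzymes of melanin synthesis, and their H3K27ac was compared between lightly and heavily pigmented B16 F10 cells. The members were the peaks of the 4 deposited H3K27ac lists that overlapped these genes or the 50 kb on each side, in the GENCODE annotation of mm10. The windows held 22 of 57942 peaks in LP replicate 1, 27 of 66580 in LP replicate 2, 45 of 64759 in HP replicate 1 and 68 of 71529 in HP replicate 2. Merged wherever peaks shared at least 1 bp, they formed 92 of the 182956 regions of the series. B16 F10 is an established mouse melanoma line. It was seeded at 100 cells/cm2, a low density at which the cells darken over days, and both populations were taken on day 5 from a shared culture by their side scatter, the light scattered by granules inside a cell. Low-pigment cells (LP) and high-pigment cells (HP) were otherwise handled alike, with no drug, transgene or deletion in either group, and each had 2 replicates. Unsorted cells gave 2 IgG libraries, which served only as the authors' background for calling peaks.

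H3K27ac, acetylation of lysine 27 on histone H3, marks active promoters and enhancers. Tyrosinase (Tyr) is the copper enzyme that catalyses the rate-limiting oxidation of tyrosine. Dopachrome tautomerase (Dct) and tyrosinase-related protein 1 (Tyrp1) act later, on dopachrome and on the carboxylated indole, in the branch that leads to eumelanin. All of them are melanosome membrane proteins and known targets of MITF, the basic helix-loop-helix factor of the melanocyte lineage, which binds an E-box flanked by a thymine (TCATGTG, the M-box).

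Tyr (ENSMUSG00000004651.6, chr7:87424771-87493512, minus strand) has 5 exons over 68742 bp. Tyrp1 (ENSMUSG00000005994.14, chr4:80834123-80851719, plus strand) has 8 exons over 17597 bp. Dct (ENSMUSG00000022129.4, chr14:118012790-118052244, minus strand) has 8 exons over 39455 bp. RefSeq gives a promoter for each of these 3 genes (GRCm38.p6, the assembly of mm10). The 250 bases before the RefSeq start are printed because they hold the M-box that MITF is known to bind in these genes, and they read 5′ to 3′ along the gene with TCATGTG, on either strand, in capitals.

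Tyr promoter, chr7:87493513-87493762: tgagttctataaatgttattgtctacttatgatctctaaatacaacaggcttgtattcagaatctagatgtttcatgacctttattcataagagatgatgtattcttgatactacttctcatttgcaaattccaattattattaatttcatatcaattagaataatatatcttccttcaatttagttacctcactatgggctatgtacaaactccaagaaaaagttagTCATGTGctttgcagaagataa
Tyrp1 promoter, chr4:80833963-80834212: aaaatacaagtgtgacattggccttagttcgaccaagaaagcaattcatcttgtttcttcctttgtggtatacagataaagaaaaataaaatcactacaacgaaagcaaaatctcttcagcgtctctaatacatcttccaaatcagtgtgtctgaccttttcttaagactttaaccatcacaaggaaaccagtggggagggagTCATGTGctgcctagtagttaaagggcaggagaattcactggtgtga
Dct promoter, chr14:118052247-118052496: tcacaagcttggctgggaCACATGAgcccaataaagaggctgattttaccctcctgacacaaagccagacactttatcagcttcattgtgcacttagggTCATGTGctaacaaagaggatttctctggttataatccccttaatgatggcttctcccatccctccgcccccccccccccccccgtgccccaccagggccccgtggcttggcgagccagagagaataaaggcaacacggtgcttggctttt

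The first base of TCATGTG stood 22 bases before the RefSeq start in Tyr and 47 bases before it in Tyrp1. Dct had 2 matches, at 151 bases before the RefSeq start and, on the reverse strand, at 232. Positions of peaks are given from the GENCODE start, which differs from the RefSeq start in Tyrp1 and Dct. The Tyrp1 match (chr4:80834166-80834172) lies inside the gene as GENCODE has it. The 7 letters occurred on either strand in 3.77% of 32851 RefSeq promoters of 300 bases, so all 3 members belonged to a small class. A called peak rarely reached them. The match in Tyr lay 252 and 238 bp from the nearest peak edge for LP and 187 and 56 bp for HP, and no list covered it. In Tyrp1 the distances were 1462 and 962 bp for LP and 86 bp in HP replicate 1, and the peak of HP replicate 2 ran across the match. In Dct the nearer match lay 8 and 760 bp from a peak for LP and 53 bp in HP replicate 1, and again the peak of HP replicate 2 covered it.

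5 further stretches of 151 bases, centred on a summit, are printed because the distal results below turn on them. The first 3 are, for each gene, the element of highest pileup called in both HP libraries and in neither LP library, away from a transcription start site (TSS). Then come the 1 region that passed the test and last the element with the highest pileup of all away from a TSS. They read along the strand of the gene and come from the GRCm38 genome.

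Tyr, 13.4 kb upstream, chr7:87506788-87506938: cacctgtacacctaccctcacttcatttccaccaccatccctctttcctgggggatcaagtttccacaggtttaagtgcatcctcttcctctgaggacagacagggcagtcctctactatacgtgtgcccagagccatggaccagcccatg
Tyrp1, 14.7 kb upstream, chr4:80819347-80819497: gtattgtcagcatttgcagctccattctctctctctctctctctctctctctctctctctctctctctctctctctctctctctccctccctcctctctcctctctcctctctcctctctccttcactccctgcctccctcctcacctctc
Dct, 7.48 kb into the gene, chr14:118044629-118044779: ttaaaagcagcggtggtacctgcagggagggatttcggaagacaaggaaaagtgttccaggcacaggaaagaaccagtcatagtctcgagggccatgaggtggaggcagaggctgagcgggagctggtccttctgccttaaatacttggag
Dct, 37.2 kb upstream, chr14:118089317-118089467: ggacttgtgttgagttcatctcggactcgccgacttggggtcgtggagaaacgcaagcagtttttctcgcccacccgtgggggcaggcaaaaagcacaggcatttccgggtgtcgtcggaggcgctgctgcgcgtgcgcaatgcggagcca
Tyrp1, 37.7 kb upstream, chr4:80796332-80796482: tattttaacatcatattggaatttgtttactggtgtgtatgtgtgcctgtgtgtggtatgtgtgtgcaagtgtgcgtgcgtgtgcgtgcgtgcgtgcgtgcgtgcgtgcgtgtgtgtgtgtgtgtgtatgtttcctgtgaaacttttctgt

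These windows were searched on both strands for TCATGTG, for its core CATGTG, for CACGTG (the symmetric E-box), for AACAAT (bound by SOX factors), for CTTTGAT (bound by LEF and TCF factors) and for TGANTCA (the AP-1 site), and none of the letters is in capitals because no match was found. Over the summit windows of all 92 regions, TCATGTG occurred in 1 (1.09%), against 2.65% of 182798 windows genome-wide, and CATGTG, which every TCATGTG contains, in 11 (11.96%) against 11.5%. CACGTG occurred in 1.09% against 2.19%, AACAAT in 11.96% against 6.78%, CTTTGAT in 2.17% against 2.22% and TGANTCA in 2.17% against 4.29%. Both Tyrp1 elements lie in simple repeats. The element 14.7 kb upstream holds an uninterrupted run of 60 bases of alternating C and T, and the one 37.7 kb upstream holds a run of 18 bases of alternating G and T. The part of these repeats in the pileups was not tested.

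The libraries held 11467942 and 15353176 fragments for LP and 11483830 and 14254904 for HP. The pileup is the number of fragments over a summit, and it was divided by the library's fragments and multiplied by 1000000 (scaled pileup). Pileups at the members ran from 5 fragments, with an exact 95% Poisson interval of 1.62 to 11.7, to 76 fragments, with an interval of 59.9 to 95.1. These intervals cover counting error only. Below the cutoff nothing is listed, so an absent peak adds 0 to a sum without being a measurement of 0. HP replicate 2 stood apart. Over the regions called in all 4 libraries its median log2 ratio to HP replicate 1 was 0.67, while LP replicate 2 against LP replicate 1 gave −0.06, so results are also given without it. Between the groups the median log2 ratio was 0.92 over these 12084 regions and 0.79 over gene windows, and the ratios of the members are therefore also given after the median of each library had been subtracted from its log2 values (centred). Centring left a median log2 ratio of −0.09 over regions and −0.05 over gene windows, against which a centred ratio is to be read. In cells sorted in bulk, a larger share of cells with the mark cannot be told apart from more mark per cell. The labels do not say whether the replicates came from separate cultures, so the spread between them may be technical.

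The label of a melanocytic line was checked on fixed markers. A peak within 1 kb of a TSS was called for 4 and 6 of 7 melanocyte markers for LP and for 5 and 6 for HP, with Mitf, Sox10, Pax3 and Pmel called in every library. Mlana was missed in LP replicate 1, Kit was called only in LP replicate 2 and Ednrb only in HP replicate 2. The summed scaled pileup of the 7 markers was 14.1 and 16.9 for LP and 28.4 and 35.6 for HP. All 5 keratinocyte markers (Krt5, Krt14, Krt1, Krt10 and Trp63) were listed at 0 in all 4 libraries. Of 5 fibroblast markers 1 was called in each library, with a sum of 0.698 to 2.26. It was Pdgfra in LP replicate 1 (0.698), LP replicate 2 (1.56) and HP replicate 1 (2.26), and Col1a1 in HP replicate 2 (0.702). Col1a2, Lum and Dcn were at 0 throughout. The sums were 0 to 1.498 for 4 endothelial markers. Kdr (1.11) and Tek (0.391) were called in LP replicate 2 and Pecam1 (0.697) in HP replicate 1, and Cdh5 was at 0. Of the leukocyte markers reported here, Ptprc, Cd3e and Itgam were at 0 in all 4 libraries, and Spi1 had 1.95 in LP replicate 2, 1.89 in HP replicate 2 and no peak in the remaining libraries.

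All 3 genes had more peaks, a longer covered length and a higher summed pileup in both HP libraries than in either LP library. The window of Tyr held 3 and 4 peaks for LP and 9 and 12 for HP. These covered 814 and 1591 bp for LP and 3345 and 4467 bp for HP, and their summed scaled pileup was 2.09 and 2.80 for LP and 7.75 and 8.70 for HP. Tyr, the enzyme that starts the pathway, thus had the fewest peaks of the 3 in every library, and its HP replicates were close to each other. The window of Tyrp1 held 7 and 8 peaks for LP and 18 and 26 for HP, over 1634 and 2808 bp for LP and 5629 and 13586 bp for HP. Its summed scaled pileup was 5.93 and 5.28 for LP and 17.3 and 29.4 for HP, a ratio of means of 4.17, against 3.36 for Tyr and 2.44 for Dct. The LP values of Tyrp1 were close together, and HP replicate 2 lay well above HP replicate 1. The window of Dct held 12 and 15 peaks for LP and 18 and 30 for HP, over 3331 and 6250 bp for LP and 11607 and 23599 bp for HP. Its summed scaled pileup was 9.77 and 12.96 for LP and 18.9 and 36.5 for HP. Dct had the most peaks of the 3 genes for LP and in HP replicate 2, and in HP replicate 1 it had as many as Tyrp1.

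It follows that HP replicate 1 alone was also above both LP libraries on each of these 9 values. The order itself was common in the series. Among 21542 protein-coding genes with a peak in the window, both HP libraries exceeded both LP libraries in 22.7% for the number of peaks, in 43.8% for the covered length and in 59.7% for the summed pileup. With 2 libraries per group, the smallest two-sided p of an exact permutation test is 0.333, and these orders therefore carry no p-value. The median pileup of the peaks did not follow this order at Tyr, where it was 9 and 11 fragments for LP and 8 and 9 for HP, over lists of different length. The highest peak in the Tyr window had 10 and 14 fragments for LP and 24 and 20 for HP. The one of LP replicate 2 lay 116.5 kb from the Tyr start, inside the gene Nox4, and the peak of that library at the Tyr TSS had 13. The median was 10 and 8.5 fragments for LP and 10 and 12 for HP for Tyrp1, and 8 and 12 for LP and 10.5 and 12 for HP for Dct.

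**Figure D1:**
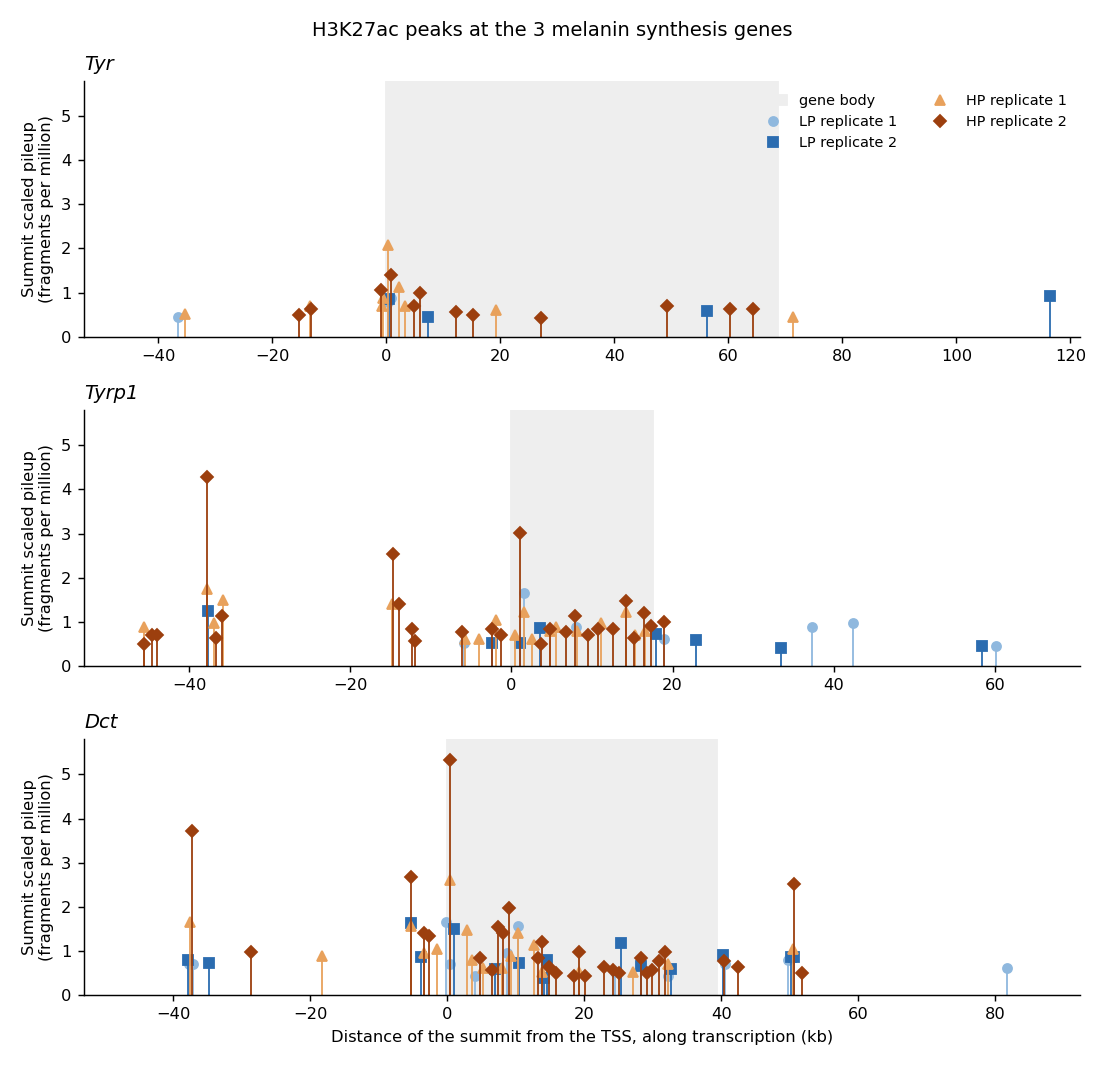
Each marker is a peak, placed by the distance of its summit from the TSS (kb, positive along transcription) and its scaled pileup (fragments per 1000000), with the gene body in grey. The highest summits belong to HP replicate 2, at 0.457 kb in Dct (5.33) and 37.7 kb upstream of Tyrp1 (4.28), and the far downstream flanks of Tyrp1 hold LP peaks.

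The windows were then divided into the TSS (1 kb on either side of the start of any protein-coding transcript), the gene body and the flank, with a peak assigned in this order. At the TSS of Tyr the summed scaled pileup was 1.66 and 0.847 for LP and 3.66 and 2.46 for HP, and the covered length was 633 and 301 bp against 1747 and 1788 bp. In the gene body of Tyr, LP replicate 1 had no peak and LP replicate 2 had 1.04, against 2.44 and 5.12 for HP. In its flank the sums were 0.436 and 0.912 for LP and 1.65 and 1.12 for HP. The Tyr TSS and body groups thus did not overlap in summed pileup or covered length. How common this was among all genes is given below by compartment for the summed pileup only. The numbers of peaks met at the TSS, with 2 and 1 for LP and 3 and 2 for HP. They did not overlap in the body, with 0 and 2 against 3 and 8. The flanking lengths overlapped, with 181 and 564 bp for LP and 623 and 534 bp for HP.

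At the TSS of Tyrp1, which includes a later start of a shorter protein-coding transcript, no peak was called in LP replicate 1. The sums were 0.521 in LP replicate 2, 0.697 in HP replicate 1 and 3.86 in HP replicate 2, so the order rested on a narrow gap and the covered lengths overlapped (871 bp in LP replicate 2 and 484 bp in HP replicate 1). The gene body of Tyrp1 held 2 and 1 peaks for LP and 9 and 10 for HP, over 482 and 376 bp against 2781 and 4909 bp. Its summed scaled pileup was 2.53 and 0.847 for LP and 7.92 and 8.98 for HP, and the 2 HP replicates were close there. In the flank of Tyrp1 the sums were 3.40 and 3.91 for LP and 8.71 and 16.6 for HP.

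At the TSS of Dct the sums were 2.35 and 1.498 for LP and 2.61 and 5.33 for HP, so HP replicate 1 was only just above LP replicate 1. The number of peaks there was 2 and 1 for LP and 1 and 1 for HP, because 1 broad peak of 1751 and 4789 bp took the place of shorter ones. In the gene body of Dct the sums were 3.92 and 4.88 for LP and 9.14 and 16.6 for HP, from 5 and 7 peaks against 11 and 20. In its flank they were 3.49 and 6.58 for LP and 7.14 and 14.5 for HP. For the summed pileup, both HP libraries were above both LP libraries in the TSS, the body and the flank of all 3 genes. The same order held for 61.5% of 13786 protein-coding genes with a peak at the TSS, 25.3% of 13935 with one in the body and 52.5% of 21421 with one in the flank.

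**Figure D2:**
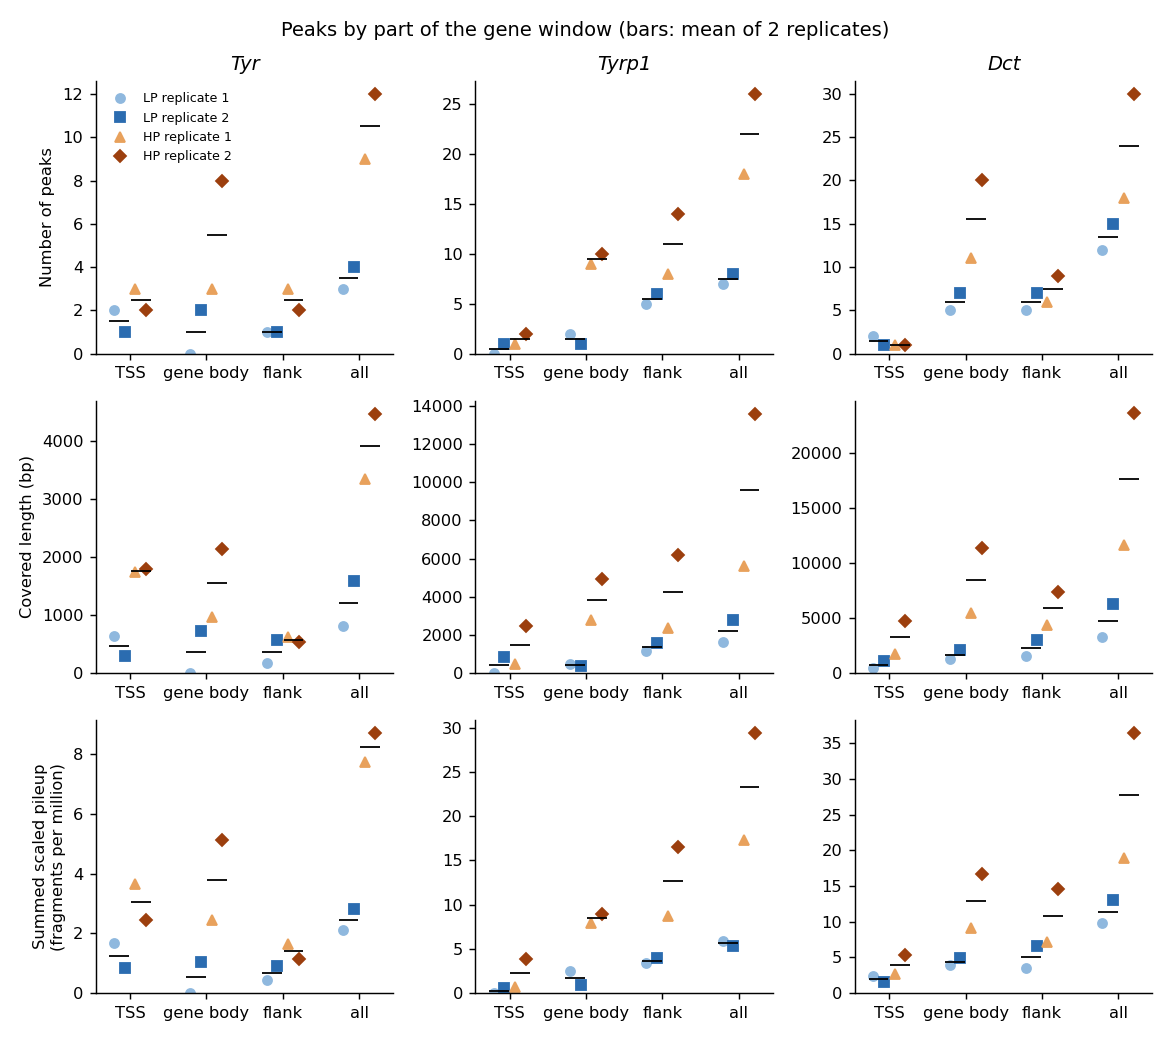
The number of peaks, the covered length (bp) and the summed scaled pileup (fragments per 1000000) are plotted for the TSS, the gene body, the flank and the whole window of each gene, with 1 marker per library and a bar at the mean of the 2 replicates. In the gene body of Tyrp1, 2 and 1 LP peaks stand against 9 and 10 HP peaks.

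The flank was also split by side, a step chosen after its values had been seen. The upstream flank of Tyrp1 had a summed scaled pileup of 0.523 and 1.76 for LP and 8.71 and 15.6 for HP, from 1 and 2 peaks against 8 and 13. Downstream of Tyrp1 the order was the opposite, with 2.88 and 2.15 for LP from 4 peaks each, no peak in HP replicate 1 and 0.982 in HP replicate 2 from 1 peak. Within the flank of Tyrp1 the higher HP sums were thus on the promoter side, beside the higher HP sums of its gene body given above. Upstream of Dct the sums were 1.40 and 3.97 for LP and 6.10 and 10.1 for HP. Downstream of Dct they were 2.09 and 2.61 for LP and 1.04 and 4.42 for HP, so the groups overlapped. Upstream of Tyr they were 0.436 and 0 for LP and 1.22 and 1.12 for HP, and downstream of it 1 peak each was called in LP replicate 2 and HP replicate 1. Both HP libraries were above both LP libraries upstream in 3 of 3 genes, against 41.1% of 20240 genes with an upstream peak, and downstream in none, against 44.4% of 20345. Both LP libraries were above both HP libraries downstream in 1 of the 3, Tyrp1, against 7.78%.

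RefSeq annotates regulatory DNA upstream of Tyr, and the peaks missed most of it. The tyrosinase locus control region (chr7:87507286-87510996), which shields the gene and carries its distal enhancer, held no peak in LP or in HP replicate 1. HP replicate 2 had 1 peak there, of 7 fragments (scaled pileup 0.491), 15.4 kb upstream. The core enhancer fragment of 208 bp within it was 518 bp from the nearest region. The HP-only region 13.4 kb upstream (chr7:87506475-87506931) ended 355 bp short of the locus control region. The CNS-2 element (chr7:87538324-87543016), farther upstream, had no peak in any library.

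6 of the 92 regions had a peak in all 4 libraries, 1 at Tyr, 1 at Tyrp1 and 4 at Dct, and these could be compared by limma, which fitted the log2 scaled pileup of all 12084 such regions. 1 of the 6 passed an adjusted p of 0.05 (Benjamini-Hochberg), and it was higher for HP. Of all 12084 regions 4.01% did so, and none was lower. At an unadjusted p under 0.05, 4374 were higher and 0 lower. The variance model gave every region the same standard error of 0.54 on the log2 scale.

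The region that passed lies 37.2 kb upstream of Dct (chr14:118089025-118090132). It had 8 and 12 fragments at the summit for LP and 19 and 53 for HP, or a scaled pileup of 0.698 and 0.782 for LP and 1.65 and 3.72 for HP. The groups did not overlap, and HP replicate 2 was more than the sum of the remaining libraries. The log2 ratio was 1.75 (SE 0.54, adjusted p = 0.0474 from limma, n = 2 per group), above that of 97.3% of the regions, and 0.74 when centred (adjusted p = 1.00). The call was lost with the replicate number as a block (adjusted p = 0.0607), with the mean of the summits (adjusted p = 0.115), without LP replicate 1 (adjusted p = 0.425), without LP replicate 2 (adjusted p = 0.319) and without HP replicate 2, where the log2 ratio was 1.16 (adjusted p = 0.264). RefSeq places in this region a gene for a phenylalanine transfer RNA, n-TFgaa5 (chr14:118089525-118089597), which the peaks of LP replicate 1 and of both HP libraries overlapped, and the long noncoding RNA Gm31633 begins 651 bp beyond the region. Transfer RNA genes have near-identical copies elsewhere, so the placement of reads there is less certain than at single-copy sequence. Its tie to Dct is by distance only.

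At the TSS of Dct (chr14:118048028-118053244) the summit had 19 and 23 fragments for LP and 30 and 76 for HP. The scaled pileup was 1.66 and 1.498 for LP and 2.61 and 5.33 for HP. The log2 ratio was 1.24 (SE 0.54, adjusted p = 0.103 from limma), or 0.23 when centred, and 0.73 without HP replicate 2. The highest summit lay in coding exon 1 in both HP libraries, 0.431 and 0.457 kb into the gene. In LP it lay 0.111 kb before the start in replicate 1 and 1.007 kb into the gene in replicate 2, so the 4 peaks of this region did not share a summit.

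At Tyr the shared region (chr7:87492094-87493472) had its summits 0.298 to 0.872 kb into the gene, in coding exon 1. Its scaled pileup was 0.872 and 0.847 for LP, from 10 and 13 fragments, and 2.09 and 1.40 for HP, from 24 and 20. This was the only shared region in which HP replicate 1 was above HP replicate 2. The log2 ratio was 0.99 (SE 0.54, adjusted p = 0.155 from limma), which centring reduced to −0.02.

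At Tyrp1 the shared region (chr4:80834121-80836123) had scaled pileups of 1.66 and 0.521 for LP and 1.22 and 3.02 for HP. The groups overlapped. The log2 ratio was 1.05 (SE 0.54, adjusted p = 0.142 from limma), made of −0.44 within replicate 1 and 2.53 within replicate 2, and it was 0.21 without LP replicate 2 and 0.39 without HP replicate 2. The values of LP replicate 1 and HP replicate 1 there came from peaks in intron 2, 1.59 and 1.51 kb into the gene and outside the TSS window, and the peak of HP replicate 1 inside that window had 0.697. 2 regions of Dct completed the set. The region across coding exon 2, 9.04 kb into the gene, also overlapped between groups, with 1.57 and 0.716 for LP and 1.39 and 1.96 for HP (log2 ratio 0.64, adjusted p = 0.307 from limma). The region beyond the 3′ end, 50.6 kb from the start, had 0.785 and 0.847 for LP and 1.04 and 2.53 for HP (log2 ratio 0.99, adjusted p = 0.155 from limma), and its log2 ratio was 0.36 without HP replicate 2.

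Summit heights could be set side by side between the genes. The TSS regions averaged 1.58 ± 0.11 for LP and 3.97 ± 1.92 for HP at Dct (SD, n = 2). They averaged 1.09 ± 0.80 and 2.12 ± 1.27 at Tyrp1, where both replicate 1 values are those of the intron 2 peaks, and 0.859 ± 0.018 and 1.75 ± 0.49 at Tyr. Dct was above Tyr in every library of the same group, and Tyrp1 overlapped with both neighbours in this order. Among the 12084 shared regions these levels were modest. Tyr stood at percentile 7.55 for LP and 8.61 for HP, Tyrp1 at 9.96 and 11.3, and Dct at 30.4 and 35.0.

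**Figure D3:**
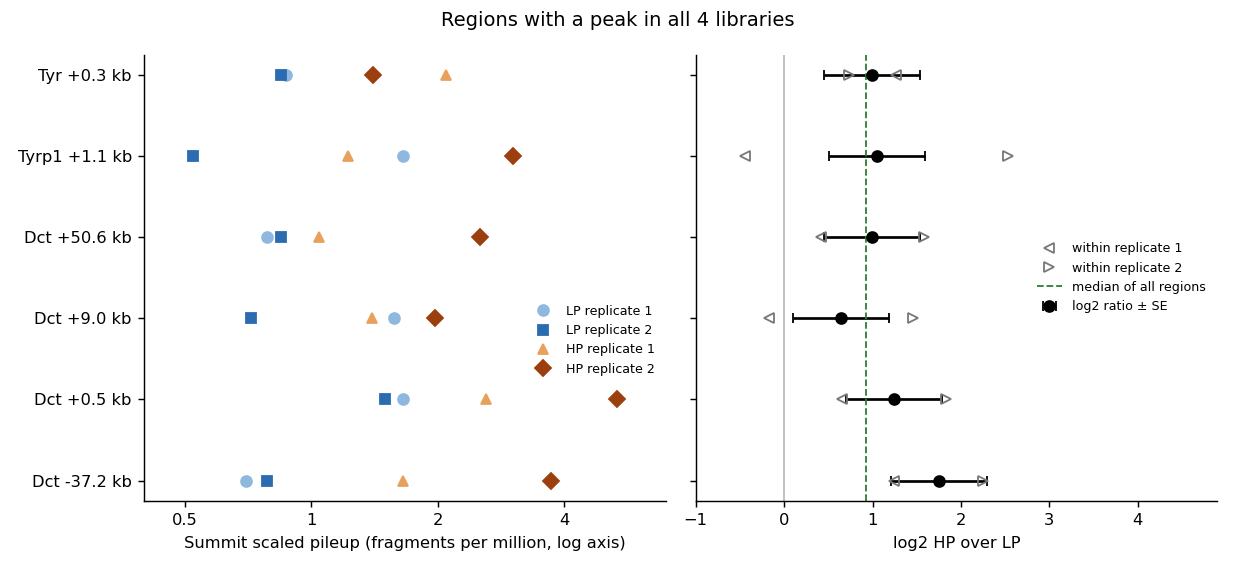
For the 6 regions with a peak in all 4 libraries, named by gene and distance from the TSS, the left panel plots the scaled pileup (fragments per 1000000, log axis) of each library and the right panel the log2 ratio of HP over LP with its SE, the ratio within each replicate number and the median of all regions (0.92). 5 ratios lie within 1 SE of that median and the region 37.2 kb upstream of Dct lies above it, and at Tyrp1 the replicates point in opposite directions (−0.44 and 2.53).

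Both HP libraries and neither LP library had a peak in 14 of the 92 regions (15.2%), 2 at Tyr, 8 at Tyrp1 and 4 at Dct. The opposite pattern was found in 0 of 92. Over all 182956 regions the shares were 3.94% and 0.249%. A peak in all 4 libraries was found in 6.6% of all regions, and in 6 of the 92. Single-library calls made up 81.7% of all regions and 58 of the 92 here, of which 31 were in HP replicate 2, 12 in HP replicate 1, 9 in LP replicate 2 and 6 in LP replicate 1. Without HP replicate 2, the regions called in HP replicate 1 and in neither LP library numbered 26 of 92 (28.3%), against 21.1% of all regions. Without HP replicate 1 they numbered 45 (48.9%), against 25.2%. These shares still count, among the 92 and among all regions, those called only in the left-out library. Of the 92 these were 31 for HP replicate 2 and 12 for HP replicate 1. Leaving out a library also drops a condition, so the counts could not fall below 14. On these denominators the excess over the background was smallest without HP replicate 2.

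9 of the 14 had their highest summit in an intron of Tyrp1 or Dct, 4 lay in the flank and 1 at a TSS. Their pileups were low, from 6 to 17 fragments in HP replicate 1 and from 7 to 36 in HP replicate 2, and they are given as calls without a test. In Tyrp1 the 5 intronic ones were in intron 3 (4.77 kb), intron 5 (11.1 kb), intron 6 (14.2 and 15.4 kb) and intron 7 (16.4 kb into the gene). The lower HP summit lay in coding exon 5 (10.7 kb, HP replicate 2) for the one at 11.1 kb. For the one at 16.4 kb it lay in coding exon 8 (16.6 kb, HP replicate 1). The strongest of the 5, at 14.2 kb, had 14 and 21 fragments for HP, or a scaled pileup of 1.22 and 1.47. The body of Tyrp1 also held 2 peaks of LP replicate 1 and 1 of LP replicate 2, in other regions. Upstream of Tyrp1, the HP-only regions lay at 14.7, 35.8 and 45.5 kb. The one at 14.7 kb, whose CT repeat is printed above, had 16 and 36 fragments, the most of the 14.

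In Dct all 4 HP-only regions were intronic, in intron 1 (4.85 and 7.48 kb), intron 4 (12.6 kb) and intron 6 (19.3 kb). The one at 7.48 kb had 7 and 22 fragments for HP. It holds the start of 4930435M08Rik, an annotated antisense transcript of Dct, and ChIP fragments carry no strand that could separate the genes. LP replicate 2 also had a peak within 1 kb of that start, with 9 fragments (scaled pileup 0.586), in the next region. That region starts at position 118045065, just past the end of the HP-only region at 118045055, where HP replicate 1 had 0.610. The HP-only pattern there rests on this narrow gap. At Tyr the HP-only regions were 0.876 kb upstream (chr7:87493791-87494744), with 10 and 15 fragments, and 13.4 kb upstream, with 8 and 9. The acetylated stretch at the Tyr promoter hence had called peaks on both sides of the start for HP and only inside the gene for LP.

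6 further regions had a peak in both HP libraries and in 1 LP library, which was LP replicate 1 for 3 of them and LP replicate 2 for the other 3. 2 of the latter are given here. The element 37.7 kb upstream of Tyrp1, the highest of the 3 windows away from a TSS, had 19 fragments in LP replicate 2 and 20 and 61 for HP, or scaled pileups of 1.24, 1.74 and 4.28. The element 5.28 kb upstream of Dct had 25 fragments in LP replicate 2 and 18 and 38 for HP, or 1.63, 1.57 and 2.67. At the latter HP replicate 1 was not above the LP value. Both were singled out after their values were seen.

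The summed pileup of each window was tested by limma on the log2 of the sum plus 1, over 17790 protein-coding genes. Tyrp1 passed the adjusted threshold and Tyr and Dct did not. Of all gene windows 0.731% were higher for HP, and 41 were lower. The log2 ratio of Tyrp1 was 1.84 (SE 0.51, adjusted p = 0.0444 from limma), above that of 99.4% of the genes. Tyr had 1.43 (adjusted p = 0.122) and Dct 1.16 (adjusted p = 0.162) in the same limma fit. When centred, the log2 ratios were 1.00 for Tyrp1 (adjusted p = 0.254), 0.59 for Tyr (adjusted p = 0.635) and 0.32 for Dct (adjusted p = 0.898), so all 3 stayed above the centred median of −0.05 and none passed the limma threshold. With the replicate number as a block the adjusted p-values from limma were 0.00337 for Tyrp1, 0.0245 for Tyr and 0.0545 for Dct, and that fit called 2009 gene windows higher against 130 without the block. Without HP replicate 2 the log2 ratio of Tyrp1 was 1.47 (adjusted p = 0.514 from limma), and its call was also lost without each of the remaining libraries in turn.

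The pathway around these enzymes was taken as a list of 39 genes for the melanosome matrix and membrane, copper supply and enzyme trafficking, melanosome transport, the tautomerases Ddt and Mif, transcription factors and receptors. 30 of them had a TSS region in all 4 libraries. Their log2 ratios were all above 0, as were those of 98.98% of all regions, with a median of 0.97 against 0.92 over all regions, or of −0.04 against −0.09 when centred, and 1 of the 30 passed the adjusted threshold. That gene was Mlph, whose product melanophilin links melanosomes to myosin Va. Its scaled pileup was 1.22 and 0.977 for LP and 2.70 and 6.17 for HP (log2 ratio 1.90, adjusted p = 0.0405 from limma). Rab38, a small GTPase that directs Tyr and Tyrp1 to melanosomes, followed with 1.13 and 0.912 for LP and 2.18 and 4.07 for HP (log2 ratio 1.55, adjusted p = 0.0614 from limma). Pmel, which forms the fibrils that melanin is laid on, had 3.05 and 1.89 for LP and 4.79 and 9.33 for HP (log2 ratio 1.48, adjusted p = 0.0706 from limma). These ratios were above those of the 3 enzymes, which ran from 0.99 to 1.24. The lowest ratios were 0.28 for Gpr143, a melanosomal receptor, and 0.52 for Mreg, a regulator of melanosome transfer.

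Over the gene windows the list had a median log2 ratio of 0.97, between the 0.79 of all genes and the 1.43 of the 3 enzymes. 37 of 39 were above 0, against 90.2% of all gene windows, and both HP libraries exceeded both LP libraries in 30, against the 59.7% given above. 1 was higher at the adjusted threshold and 0 were lower. The higher one was Rab38, with a summed scaled pileup of 4.62 and 3.58 for LP and 17.2 and 20.6 for HP (log2 ratio 1.97, adjusted p = 0.0319 from limma), the only pathway gene above Tyrp1. With the replicate block 10 of the 39 were past the threshold, against 11.3% of all gene windows. The 2 genes below 0, named after their values were seen, were Lef1 at −0.03 and Adcy1 at −1.48. The adjusted p of Adcy1 from limma was 0.113 without the block and 0.0205 with it. Adcy1, an adenylyl cyclase, had 2.09 and 4.43 for LP and 0.522 and 0.421 for HP.

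**Figure D4:**
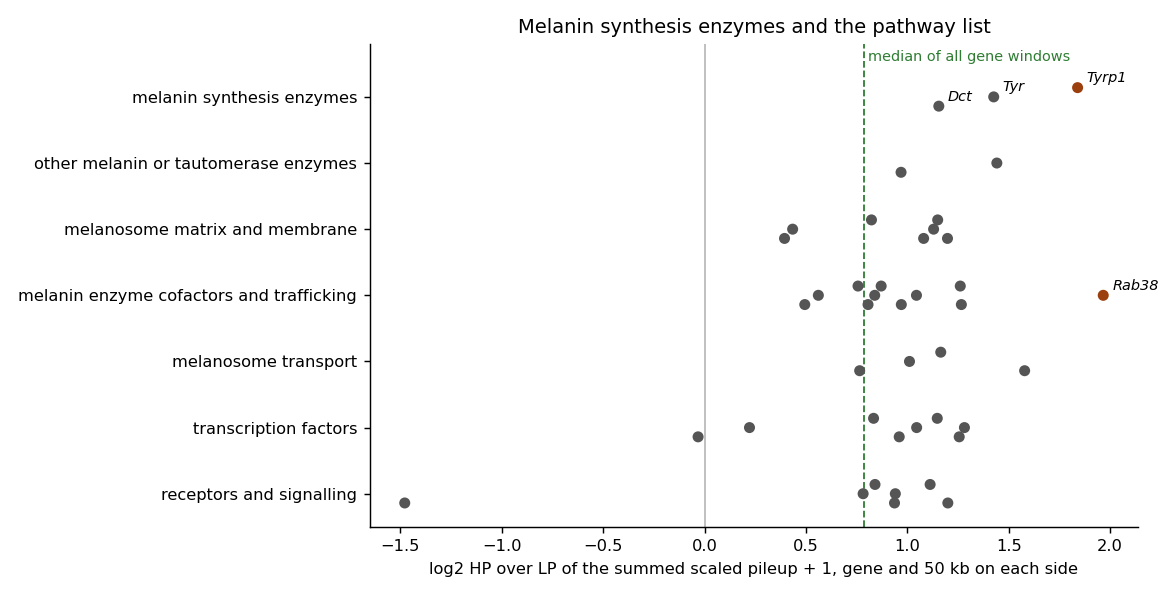
Each point is the log2 ratio of HP over LP of a gene's summed scaled pileup plus 1 across the gene with its 50 kb flanks, by group of the list, with windows past the adjusted threshold in brown and the median of all gene windows (0.79) as a dashed line. The 3 melanin synthesis enzymes lie at 1.16, 1.43 and 1.84, to the right of that line, and Tyrp1 and Rab38 are the called windows.

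The pattern of each enzyme over 12 values (3 compartments in 4 libraries, log2 of the sum plus 1) was compared with all protein-coding genes by Euclidean distance, as a description over 4 libraries. Closest to Tyr were Sec11c (1.58), Xkr5 (1.69) and Fam207a (1.70), against a median distance of 5.25. Closest to Tyrp1 were Kank3 (1.85), Trpm1 (1.85) and Extl1 (1.90), against 6.31. Closest to Dct were Wdr38 (1.26), Shank2 (1.30) and Ttll5 (1.42), against 7.12. The enzymes were less alike than these neighbours, with distances of 3.02 between Tyrp1 and Dct, 5.23 between Tyr and Tyrp1 and 5.58 between Tyr and Dct. Of the neighbouring genes, Nox4 reached into the window of Tyr and Gpc6 into that of Dct with their ends only. Their starts lay outside, and the single LP peaks in them were counted with the windows.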

How the data were processed

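H3K27ac ChIP-seq of LP and HP cells, 2 replicates each, was analysed from the peak lists, with groups and replicate numbers taken from the sample titles. The authors trimmed reads (Trimmomatic 0.33, per the processing notes), aligned them to mm10 with Bowtie2 2.5.1, and ran MACS 3.0.0b1 on each library separately, with duplicates kept, the IgG library of that replicate set as control and q-values up to 0.05 accepted. The pileup in the authors' lists is a signal, the whole number of fragments over the summit, deposited without scaling. The fold enrichment given by the authors divides the pileup plus 1 by the local background plus 1. MACS also gave the authors a −log10 p-value and a −log10 q-value for every peak, of which the q-values served here as a filter. The score in the deposited peak files is a rescaled −log10 q-value and was not used.

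Peaks were placed on GENCODE genes of GRCm38, the assembly of mm10. limma 3.58.1 in R 4.3.3 was fitted to all regions and all gene windows with a mean sum of at least 1, without a replicate block, at an adjusted p of 0.05 (Benjamini-Hochberg). Each set of replicates had its own IgG library and started from equal DNA per the labels, so the numbers pair the samples, and the fit with the block was run as an alternative. The change from replicate 1 to 2 in LP and that in HP had a correlation of 0.0153 across regions and of 0.162 across gene windows. The scripts (Python 3.11.15, pandas 2.3.3, numpy 2.4.6) were tested on simulated data. Named regions are those called in all 4 libraries, at a TSS, or in both libraries of 1 group and neither of the other. Named pathway genes are those that passed at the TSS, the 3 highest and the 2 lowest, and the likeness genes are the 3 closest. The members, lists, tests and alternatives were chosen with earlier results of these data known. Read counts within regions were not analysed here. One marker on the fixed lists is not reported here.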

Additional observations from a re-analysis of the deposited data

How the results depend on the processing

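The depth limits these windows to summits of 5 to 76 fragments, and 2 replicates per group with an HP replicate 2 that stands apart limit every ratio. Of the 6 regions called in all 4 libraries, the 1 called in the report became 0 with the replicate block, 0 with each library centred on its median and 0 with the mean of the summit pileups, and leaving out each library in turn gave 0 to 4. Only the fit without HP replicate 1 called 4, and it called 6930 of all 12084 regions. Centring, after which the median of all regions was −0.09, reversed the log2 ratio at Tyr 0.298 kb into the gene (−0.016), at Dct 50.6 kb (−0.016) and at Dct 9.04 kb (−0.37). Within replicate 1 the ratio was reversed at Tyrp1 1.12 kb into the gene (−0.44) and at Dct 9.04 kb (−0.17). The cause of these reversals was not tested.

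For the gene windows, the replicate block left the log2 ratio of Tyr at 1.43 and brought it past the threshold (adjusted p = 0.0245 from limma). For Tyrp1 the call at 1.84 was lost with centring (1.00), with a pseudocount of 0.1 (1.99), without the filter on low values (1.84, adjusted p = 0.052 from limma), with 20 kb (1.78) and with 100 kb on each side (1.57), and without each library in turn (1.47 to 2.20). Dct passed with a pseudocount of 10 (0.78). The block changed no other call in these windows. Over all gene windows the number called higher was 130 as reported, 2009 with the block, 2041 with a pseudocount of 10, 536 without LP replicate 2, 39 without LP replicate 1, 15 with a pseudocount of 0.1 and 0 with centring or without either HP replicate.

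The ratio of HP to LP at Tyr moved for the number of peaks from 3 to 4 with 20 kb on each side and to 4 with q-values of at most 0.01, and for the summed pileup from 3.36 to 4.49 and 4.36. The 14 regions called in both HP and neither LP library became 26 without HP replicate 2, chosen after seeing the data, and 17 to 45 over all single libraries left out. Leaving out a library removes a condition of this pattern, so the count could not fall. They were 13 when peaks had to cover 50% of a region and 15 at a q-value of at most 0.01. Of the compared values, 220 kept their direction and their side of the threshold, or moved by less than the replicate SD. For counts the limit was 1.5 times. A further 21 were weaker, 17 were counted as moved, 8 were stronger and 5 were reversed. Some of the 220 could not change, such as the sums at a TSS or in a gene body under another flank.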
